A study of Mus musculus with 12 samples.

Results

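Paraxial and lateral mesoderm genes were followed in 12 RNA-Seq libraries of differentiating mouse embryonic stem cells. The set was given as a list of 10 gene symbols, chosen with earlier results of these data known, and 8 of them, Msgn1, Mesp2, Meox1, Osr1, Foxc1, Pdgfra, Dll1 and Dll3, had a locus in the assembly, among 79655 loci with a position. The other 2 genes were not analysed here. All 8 passed the expression filter and were among the 17938 loci tested.

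All libraries came from 1 ESC line with the label C57BL/6 in which an EGFP cassette sits at the start of the endogenous Eomes gene, so that fluorescence reports transcription of this T-box factor of the mesendoderm. Undifferentiated ESCs (day 0) had been grown on mouse embryonic fibroblast feeders. Cells allowed to differentiate in hanging drops were sorted on day 3 by their fluorescence into an EGFP-positive (Eo+) and an EGFP-negative (Eo−) fraction. Each group holds 4 libraries, with replicate numbers 1, 2, 5 and 6. All 3 groups carry the reporter, and the fractions were defined by EGFP rather than by Eomes mRNA. Eomes mRNA was 463 to 665 CPM in Eo+ libraries and 120 to 174 CPM in Eo− libraries. CPM are counts per 1000000 counts in the tested loci, after scaling of the libraries. Per the methods of the study the libraries stem from 4 differentiations, all of the same line, so p-values measure the spread between these libraries.

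In the gastrulating embryo, cells that pass through the primitive streak are allotted to axial, paraxial, intermediate and lateral mesoderm. Paraxial cells form the presomitic mesoderm, where the bHLH factor Msgn1 promotes exit from the progenitor state, Notch ligands of the Delta family drive a segmentation clock, and Mesp2 sets the boundary of each new somite. Foxc1 acts with related forkhead factors in paraxial and cardiovascular mesoderm, Meox1 is a homeobox factor of formed somites, and Osr1 is a zinc finger factor of intermediate and lateral mesoderm. Pdgfra, a receptor tyrosine kinase for platelet-derived growth factors, is spread through nascent and paraxial mesoderm and is also present in primitive endoderm and in fibroblasts.

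Total locus counts ranged from 648413022 to 837308168 per library, and 3 counts, the upper limit for a gene at 0 counts (counting error only), amounted to 0.00368 to 0.00485 CPM. The lowest count of any of the 8 genes in any library was 44, for Osr1 in replicate 6 of ESC. Between libraries of a group the Spearman correlation was 0.989 to 0.998, taken over loci, which are no replicates. A list of 16 fibroblast genes summed to 287 to 910 CPM in ESC libraries, 76.2 to 95.6 CPM in Eo− and 93.2 to 140.2 CPM in Eo+ libraries. Of its 15 tested genes, 14 were lower in Eo+ than in ESC and 13 in Eo− than in ESC, and Tagln, an actin-binding protein of contractile cells, had the highest level in ESC at 197 CPM. S100a4, a fibroblast calcium-binding protein (mean of 12.4 CPM in ESC), and the chemokine Ccl2 (2.04 CPM) had means of at most 0.0226 CPM in both sorted fractions. In these bulk libraries fewer cells of a type and less RNA per cell cannot be told apart.

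The 8 loci lie on 6 chromosomes of mm10. Msgn1 is on chromosome 12 (11206627 to 11210488, minus strand), Mesp2 on chromosome 7 (79801515 to 79813450, plus strand), Meox1 on chromosome 11 (101877510 to 101894374, minus strand) and Osr1 on chromosome 12 (9574442 to 9581499, plus strand). Foxc1 is on chromosome 13 (31806665 to 31810649, plus strand), Pdgfra on chromosome 5 (75152291 to 75198211, plus strand), Dll1 on chromosome 17 (15367354 to 15376872, minus strand) and Dll3 on chromosome 7 (28293553 to 28302238, minus strand). Every locus contained a transcript that matched the Ensembl model. The Pdgfra locus also contains the microRNA gene Mir7025. For Mesp2 the assembly added a 3-exon transcript whose first exon begins 9212 bp upstream of the RefSeq start, and for Msgn1 a 2-exon transcript that begins 1540 bp upstream of it.

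Promoter windows (RefSeq, GRCm38.p6, 250 bases before to 50 after a start) were found for 6 of the 8 genes, Dll1 having 2 windows. The 250 upstream bases of 4 windows, which did not overlap an assembled exon of their gene, are shown because these 4 genes were all higher in Eo+ than in Eo− cells (results given further on). Capitals mark a match to 1 of the 5 motifs searched on both strands.
Mesp2 (chr7:79810477-79810726, plus strand): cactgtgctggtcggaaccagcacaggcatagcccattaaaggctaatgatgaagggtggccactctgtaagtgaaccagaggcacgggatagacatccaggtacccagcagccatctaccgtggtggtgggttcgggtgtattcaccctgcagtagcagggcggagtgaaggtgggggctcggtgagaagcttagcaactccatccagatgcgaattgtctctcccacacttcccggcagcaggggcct
Foxc1 (chr13:31806396-31806645, plus strand): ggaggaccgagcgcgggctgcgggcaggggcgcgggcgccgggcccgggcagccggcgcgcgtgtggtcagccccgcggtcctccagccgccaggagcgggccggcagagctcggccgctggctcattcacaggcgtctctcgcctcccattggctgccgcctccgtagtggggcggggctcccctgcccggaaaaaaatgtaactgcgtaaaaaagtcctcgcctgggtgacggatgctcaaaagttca
Pdgfra (chr5:75152001-75152250, plus strand): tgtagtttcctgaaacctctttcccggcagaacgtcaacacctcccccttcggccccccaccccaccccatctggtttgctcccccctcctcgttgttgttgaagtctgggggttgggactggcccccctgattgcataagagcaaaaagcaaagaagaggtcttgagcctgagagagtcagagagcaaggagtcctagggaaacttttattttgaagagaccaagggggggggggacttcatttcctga
Dll1 (chr17:15376933-15377182, minus strand): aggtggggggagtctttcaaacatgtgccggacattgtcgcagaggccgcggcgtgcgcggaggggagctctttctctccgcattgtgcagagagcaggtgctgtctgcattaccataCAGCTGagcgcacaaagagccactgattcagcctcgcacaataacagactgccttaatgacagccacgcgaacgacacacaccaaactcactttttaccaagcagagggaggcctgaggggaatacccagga

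The motifs were the T-box site TCACAC, the RBPJ core TGGGAA, the TATA box TATAAA and the E-boxes CATATG and CAGCTG. The first of these was present in 1 of 7 windows, that of Dll3, against 14.5% of all 32851 mouse windows. The RBPJ core was present in 2 windows (Msgn1 and Foxc1) against 25.6% of all, and CAGCTG in 2 (Dll1 and Dll3) against 16.3%. TATAAA (13.6% of all) and CATATG (3.91% of all) were found in 0 of the 7 windows. The windows of Mesp2 and Pdgfra held none of these letters, which says nothing about the factors that bind there. The matched stretches follow, each with 10 bases on either side, in the direction of the gene. The match in Foxc1 starts 6 bases after the RefSeq start, those in Dll3 146 and 7 bases before it, and those in Msgn1 and Dll1 114 and 132 bases before it.
Dll3 (chr7:28301916-28301941, TCACAC): gcgcatgcaaTCACACtcaggatgaa
Dll3 (chr7:28301777-28301802, CAGCTG): cggcatccagCAGCTGcgactcctga
Dll1 (chr17:15377049-15377074, CAGCTG): cattaccataCAGCTGagcgcacaaa
Msgn1 (chr12:11209047-11209072, TGGGAA read on the other strand): ggggccccctTTCCCActttgtcccc
Foxc1 (chr13:31806642-31806667, TGGGAA read on the other strand): ttcagaagttTTCCCAatgcttcctt

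Mesp2, Foxc1, Pdgfra and Dll3, 4 of the 8 genes, were higher in Eo+ cells than in both ESCs and Eo− cells, as were 18.7% of all loci tested. In Eo+ against ESC, 5 were higher, 1 was lower and 2 were not called by limma at an adjusted p of at most 0.05, where 71.9% of all loci tested were called, 35.8% higher and 36.1% lower. In Eo− against ESC, 4 were higher and 2 lower, with 62.2% of all loci called, 30.9% higher and 31.3% lower. Between the sorted fractions, 5 genes were higher in Eo+ and 0 were lower, with 47.7% of all loci called, 23.0% higher and 24.6% lower. This fit did not use the pairing of the fractions. Osr1 was also called higher in a fit with the replicate number as a block. As to the 0 genes lower in Eo+, no member was called lower in Eo+ than in Eo− with edgeR or DESeq2 either. None was lower at an unadjusted p under 0.05 in the limma fit. The median log2 fold change over the 8 genes was 2.77 in Eo+ against ESC, 0.34 in Eo− against ESC and 1.58 in Eo+ against Eo−, beside medians of 0.00, 0.02 and −0.01 over all loci.

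**Figure D1:**
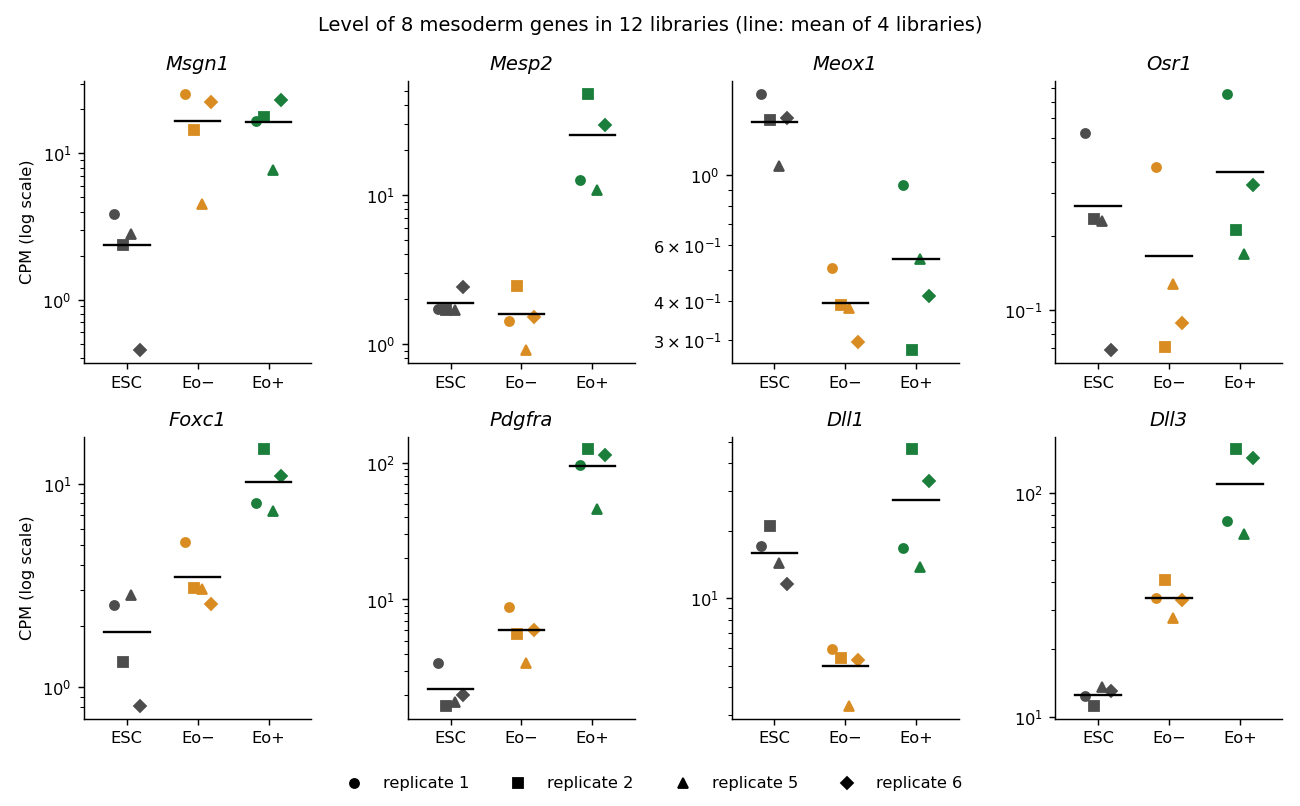
Level of each of the 8 genes in every library, in CPM on a log axis, for ESC (grey), Eo− (orange) and Eo+ (green), with 1 symbol per replicate number and a line at the mean of 4 libraries. All Eo+ libraries lie above all Eo− libraries for Mesp2, Foxc1, Pdgfra, Dll1 and Dll3, whereas both fractions overlap for Msgn1, Meox1 and Osr1.

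Levels per length differed widely among the 8 genes. In Eo+ cells the mean was 38.6 FPKM (fragments per kilobase of exon, scaled as CPM) for Dll3, 13.9 for Pdgfra, 12.02 for Mesp2, 5.85 for Msgn1, 5.53 for Dll1 and 2.56 for Foxc1. Meox1 and Osr1 were close to the filter, at 0.243 and 0.181 FPKM. Among all protein-coding loci tested, Dll3 was at the 91.0th percentile of Eo+ levels and Osr1 at the 12.9th. In ESCs Dll3 (4.38 FPKM) and Dll1 (3.21 FPKM) were the only 2 of the 8 above 1 FPKM.

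Msgn1, the bHLH factor of the presomitic mesoderm, rose in both sorted fractions. Its level in replicates 1, 2, 5 and 6 was 3.87, 2.36, 2.84 and 0.452 CPM in ESCs, 25.5, 14.4, 4.55 and 22.5 CPM in Eo− cells and 16.7, 17.8, 7.67 and 23.1 CPM in Eo+ cells. Every sorted library was above every ESC library, and the ranges of Eo− and Eo+ overlapped almost completely. Msgn1 rose by 2.99 ± 0.72 (log2 ± SE) in Eo+ against ESC and 2.90 ± 0.72 in Eo− against ESC, with limma adjusted p-values of 0.00200 and 0.00326. Without replicate 6 of ESC, the lowest library, these changes were 2.35 and 2.25, with adjusted p-values of 0.00762 and 0.0118. Between the fractions the difference was 0.09 ± 0.52 with a limma adjusted p of 0.897, and its sign changed among the alternatives, from −0.43 to 0.42.

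Mesp2, the bHLH factor of the somite boundary, was raised in Eo+ cells. It held 1.71, 1.68, 1.68 and 2.39 CPM in the 4 ESC libraries and 1.43, 2.46, 0.906 and 1.52 CPM in the Eo− libraries, in the order of replicates 1, 2, 5 and 6. Eo+ libraries held 12.6, 47.5, 10.7 and 29.3 CPM, so that the lowest of them, 10.7 CPM, was well above the highest of the other groups, 2.46 CPM. Mesp2 rose by 3.50 ± 0.55 on the log2 scale in Eo+ against ESC and by 3.81 ± 0.56 in Eo+ against Eo−, with limma adjusted p-values of 5.69e-05 and 1.11e-04. In Eo− against ESC the value was −0.31 ± 0.70 with an adjusted p of 0.720. The spread within Eo+ was wide, at 25.0 ± 17.2 CPM (SD, n = 4).

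Meox1 was the only member of the set that was lower in both fractions than in ESCs. This factor of formed somites held 1.82, 1.502, 1.07 and 1.52 CPM in ESCs, 0.507, 0.388, 0.377 and 0.295 CPM in Eo− cells and 0.934, 0.278, 0.541 and 0.412 CPM in Eo+ cells. All sorted libraries were below all ESC libraries. The log2 fold change was −1.56 ± 0.31 in Eo+ against ESC and −1.91 ± 0.31 in Eo− against ESC, with limma adjusted p-values of 4.10e-04 and 1.39e-04. On the deposited normalized values, with a pseudocount of 0.5, these changes were −0.93 and −1.11 and were still called. Eo+ against Eo− gave 0.35 ± 0.35 with an adjusted p of 0.427. The fibroblast list fell alongside. Among ESC libraries Meox1 was lowest in replicate 5 (1.07 CPM), where the fibroblast sum was highest (910 CPM). It was at 1.52 CPM in replicate 6, where that sum was lowest (287 CPM). The part of the fibroblast genes in the level of Meox1 in ESCs was not tested.

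Osr1, which marks intermediate and lateral mesoderm, was scarce in all 3 groups. ESC libraries held 0.523, 0.235, 0.230 and 0.0689 CPM, Eo− libraries 0.380, 0.0707, 0.127 and 0.0886 CPM and Eo+ libraries 0.754, 0.212, 0.169 and 0.322 CPM. Replicate 1 was the highest library of each group, and all 3 ranges overlapped. Neither Eo+ against ESC (0.51 ± 0.62, limma adjusted p = 0.479) nor Eo− against ESC (−0.69 ± 0.69, adjusted p = 0.397) was called. Eo+ against Eo− gave 1.20 ± 0.66 with an adjusted p of 0.153 without regard to the pairing of the fractions, and 0.35 to 1.74 over the alternatives, the lowest on the deposited normalized values with the pseudocount and the highest without replicate 1 of Eo−. Within pairs of the same number Osr1 was higher in Eo+ in 4 of 4, from 1.33-fold to 3.63-fold, and the fit with the replicate number as a block gave 1.13 with an adjusted p of 0.0136 over all 12 libraries and 1.16 ± 0.22 with 0.00354 over the 8 sorted libraries.

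Foxc1, the forkhead factor, increased in steps from ESC to Eo− to Eo+. It held 2.53, 1.33, 2.83 and 0.812 CPM in ESCs, 5.18, 3.07, 3.06 and 2.55 CPM in Eo− cells and 7.98, 14.7, 7.31 and 10.9 CPM in Eo+ cells. Eo+ libraries did not overlap the others, but replicate 6 of Eo− was below replicate 5 of ESC. Foxc1 rose by 2.54 ± 0.36 in Eo+ against ESC (limma adjusted p = 2.09e-05) and by 1.55 ± 0.32 in Eo+ against Eo− (adjusted p = 0.00139). Its rise in Eo− against ESC, 0.99 ± 0.39 with a limma adjusted p of 0.0414, was lost in 10 of 23 alternatives. These included edgeR (0.0504), DESeq2 size factors (0.0515) and the fits without replicate 2 (0.105) or 6 (0.138) of ESC or without replicate 1 (0.122), 2 (0.0597) or 5 (0.0574) of Eo−. In ESC Foxc1 was highest in replicate 5 and then in 1, 2 and 6. The fibroblast sum had the same order (910, 685, 464 and 287 CPM). No other member of the set had this order in ESC. The part of the fibroblast genes in the level of Foxc1 was not tested.

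Pdgfra showed the largest rise of the 8 genes in Eo+ against ESC. The receptor held 3.44, 1.67, 1.79 and 2.01 CPM in ESCs, 8.80, 5.61, 3.42 and 5.94 CPM in Eo− cells and 95.3, 124.8, 45.6 and 113.2 CPM in Eo+ cells. All Eo+ libraries were far above the rest, and replicate 5 of Eo− was just below replicate 1 of ESC. Pdgfra rose by 5.37 ± 0.47 in Eo+ against ESC and by 3.97 ± 0.39 in Eo+ against Eo−, with limma adjusted p-values of 2.39e-07 and 4.26e-06. The rise in Eo− against ESC, 1.40 ± 0.56 with an adjusted p of 0.0418, was lost with a filter of 1 CPM (0.0560) and without replicate 2 (0.1003), 5 (0.0886) or 6 (0.0772) of ESC or replicate 1 (0.113), 2 (0.0750) or 6 (0.0715) of Eo−. A list of 12 primitive and visceral endoderm genes summed to 46.6 to 69.0 CPM in ESC and 42.2 to 92.9 CPM in Eo− libraries. In Eo+ libraries it summed to 469 to 583 CPM. The largest means in Eo+ were those of Gata4, Foxa2 and Gata6 (155, 116 and 93.4 CPM). Gata4 and Gata6 are also in the list of lateral mesoderm genes. The part of the endoderm list in the level of Pdgfra was not tested. Afp, Apoa1 and Ttr, which mark visceral endoderm, had means of 0.0611, 0.170 and 0.00966 CPM in ESC, 0.135, 1.25 and 1.35 CPM in Eo− and 1.49, 6.08 and 10.1 CPM in Eo+. All 3 were higher in Eo+ than in ESC (limma adjusted p = 0.00808, 0.00163 and 0.00928). Amn and Cubn, which form the endocytic receptor of visceral endoderm, were at 0.689 and 1.65 CPM in Eo+ against 2.14 and 2.65 CPM in ESC, Amn being lower (−1.70 ± 0.29, limma adjusted p = 1.19e-04) and Cubn not called (−1.39 ± 0.70, adjusted p = 0.0887). Over the 12 genes of the list, 9 were higher, 1 was lower and 2 were not called in Eo+ against ESC.

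**Figure D2:**
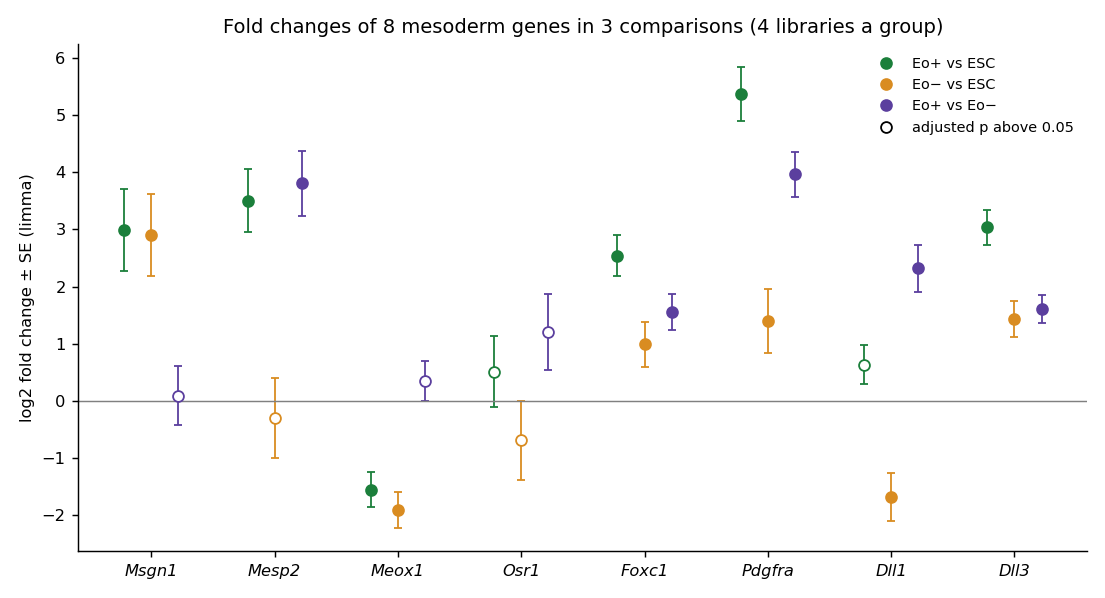
Log2 fold change ± SE of each gene from limma in Eo+ against ESC (green), Eo− against ESC (orange) and Eo+ against Eo− (purple), with open symbols where the adjusted p was above 0.05. Pdgfra has the largest value (5.37 in Eo+ against ESC), Meox1 is below 0 in both comparisons with ESC, and Dll1 and Dll3 have opposite signs in Eo− against ESC (−1.68 and 1.43).

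The Notch ligands Dll1 and Dll3 differed from each other in Eo− cells. Dll1 activates Notch receptors on neighbouring cells, whereas Dll3 is a divergent ligand that does not activate them and acts within the cell. Dll1 fell from 17.0, 20.9, 14.3 and 11.6 CPM in ESCs to 5.94, 5.42, 3.31 and 5.27 CPM in Eo− cells, without overlap. In Eo+ cells it was 16.8, 46.1, 13.7 and 33.4 CPM, a range that covered most of the ESC libraries and was above all Eo− libraries. Its log2 fold change was −1.68 ± 0.43 in Eo− against ESC (limma adjusted p = 0.00365) and 2.32 ± 0.41 in Eo+ against Eo− (adjusted p = 4.33e-04). In Eo+ against ESC it was 0.64 ± 0.33 with an adjusted p of 0.102, which passed the threshold with edgeR (0.0486), DESeq2 (0.0316), the replicate block (0.0283) and without replicate 1 (0.0431) or 5 (0.0151) of Eo+.

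Dll3 was higher in each step without overlap between groups. ESC libraries held 12.3, 11.2, 13.5 and 13.0 CPM, Eo− libraries 33.8, 40.8, 27.6 and 33.3 CPM and Eo+ libraries 75.1, 156.4, 65.3 and 142.9 CPM. The log2 fold change was 3.04 ± 0.30 in Eo+ against ESC, 1.43 ± 0.32 in Eo− against ESC and 1.60 ± 0.25 in Eo+ against Eo−. Limma gave adjusted p-values of 8.19e-07, 0.00157 and 1.68e-04. Its ESC level was the least variable of the 8 genes, with a coefficient of variation of 8.06%, and in Eo+ this was 42.2%.

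The ratio of Dll3 to Dll1 was compared within each library, where library scaling cancels. In FPKM, Dll3 over Dll1 was 1.26, 0.932, 1.64 and 1.96 in ESCs, 9.92, 13.1, 14.6 and 11.0 in Eo− cells and 7.79, 5.92, 8.31 and 7.47 in Eo+ cells. The 3 groups did not overlap. On the log2 scale the ratio was higher by 3.11 in Eo− and by 2.39 in Eo+ than in ESCs, and lower by 0.72 in Eo+ than in Eo−, a signed difference of −0.72. Both ligands moved in Eo− cells, Dll1 being lower and Dll3 higher than in ESCs. A two-sided exact permutation test gave p = 0.0286 for each of these 3 comparisons, and 0.0286 after adjustment over the 3. This is the smallest p that 4 against 4 unpaired libraries allow. The test did not use the pairing of the sorted fractions, and no test within pairs was run for Eo+ against Eo−.

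**Figure D3:**
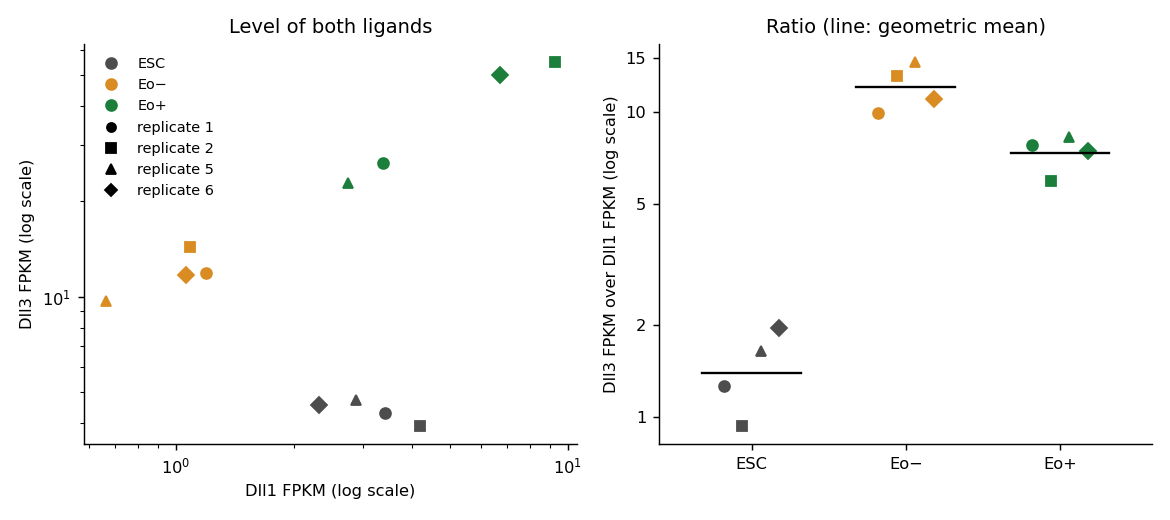
Left, Dll3 against Dll1 in FPKM, both on log axes, with 1 point per library. Right, their ratio in each library on a log axis with a line at the geometric mean, which separates ESC (0.932 to 1.96), Eo+ (5.92 to 8.31) and Eo− (9.92 to 14.6).

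Sorted fractions with the same replicate number deviated together across loci, so the genes were also compared within these pairs. The ratio of Eo+ to Eo− was 8.82 to 19.3 for Mesp2, 10.8 to 22.3 for Pdgfra, 2.83 to 8.51 for Dll1, 2.22 to 4.29 for Dll3 and 1.54 to 4.80 for Foxc1, above 1 in 4 of 4 pairs for each. For Msgn1 (0.653 to 1.69) and Meox1 (0.716 to 1.84) it was above 1 in 3 of 4. In 6 of the 8 genes (Mesp2, Osr1, Foxc1, Pdgfra, Dll1 and Dll3) the 2 highest ratios were those of replicates 2 and 6. Replicate 5 was the lowest Eo+ library for 7 of the 8 genes and the lowest Eo− library for 5. The share of all loci tested with such orders was not counted, so these counts are not particular to the set. Eomes itself was 665 and 595 CPM in replicates 2 and 6 of Eo+ and 463 CPM in both others, and Mesp1, the cardiac mesoderm paralog of Mesp2, was 221 and 193 CPM against 92.7 and 50.6 CPM in replicates 1 and 5. Whether these levels set the ratios of the 6 genes was not tested.

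**Figure D4:**
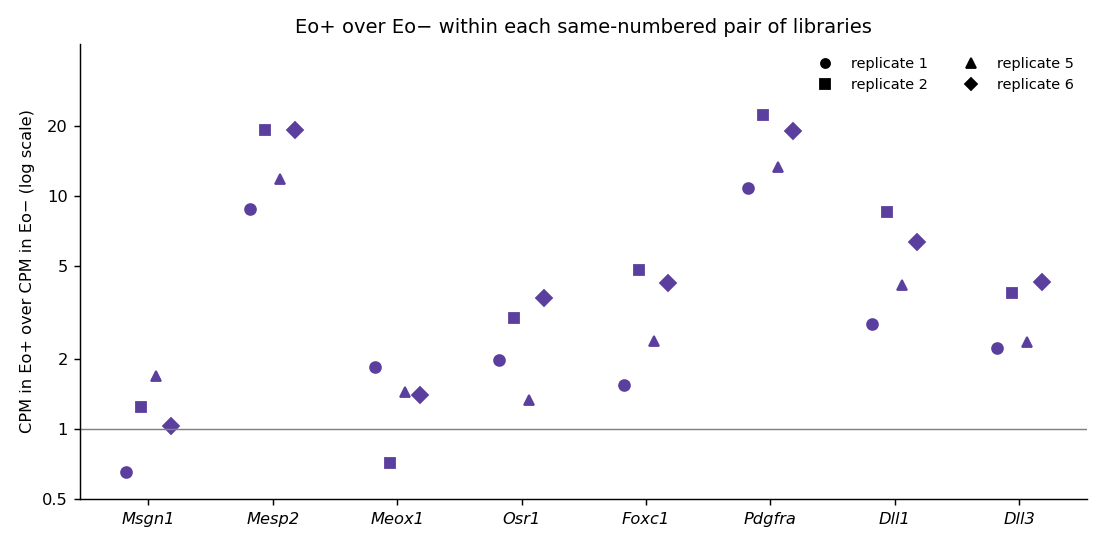
Ratio of the CPM in Eo+ to that in Eo− for each same-numbered pair of libraries, on a log axis, with 1 symbol per replicate number and a line at 1. All 4 pairs lie above 1 for Mesp2, Osr1, Foxc1, Pdgfra, Dll1 and Dll3, and 1 pair of 4 lies below 1 for Msgn1 and for Meox1.

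The other genes of the Notch pathway moved in both directions. Of 22 receptors, ligands, modifiers and targets, 13 were higher, 7 lower and 2 not called in Eo+ against ESC, 9, 8 and 5 in Eo− against ESC, and 11, 7 and 4 in Eo+ against Eo−. Their median log2 fold change was 0.61, −0.10 and 0.31. The ligand Jag1 was at 25.1 CPM in ESC, 12.9 in Eo− and 46.5 in Eo+, higher in Eo+ than in Eo− by 1.84 ± 0.15 (limma adjusted p = 9.12e-07), and fell in Eo− against ESC (−0.97 ± 0.16, adjusted p = 1.14e-04) as Dll1 did. Its paralog Jag2 was lower in Eo+ than in Eo− (−1.51 ± 0.18, limma adjusted p = 1.78e-05), as was Dll4, a ligand of arterial endothelium (−1.77 ± 0.61, adjusted p = 0.0283). The glycosyltransferase Lfng, which modifies the response of Notch to its ligands, rose from 5.95 to 21.5 CPM (1.55 ± 0.47, adjusted p = 0.0146) and the target Hes1 from 45.4 to 132 CPM (1.53 ± 0.15, adjusted p = 4.81e-06). Hes5, a target in neural progenitors, was lower in Eo+ (−2.36 ± 0.44, limma adjusted p = 6.76e-04) and did not exceed 1.00 CPM in the mean of any group.

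**Figure D5:**
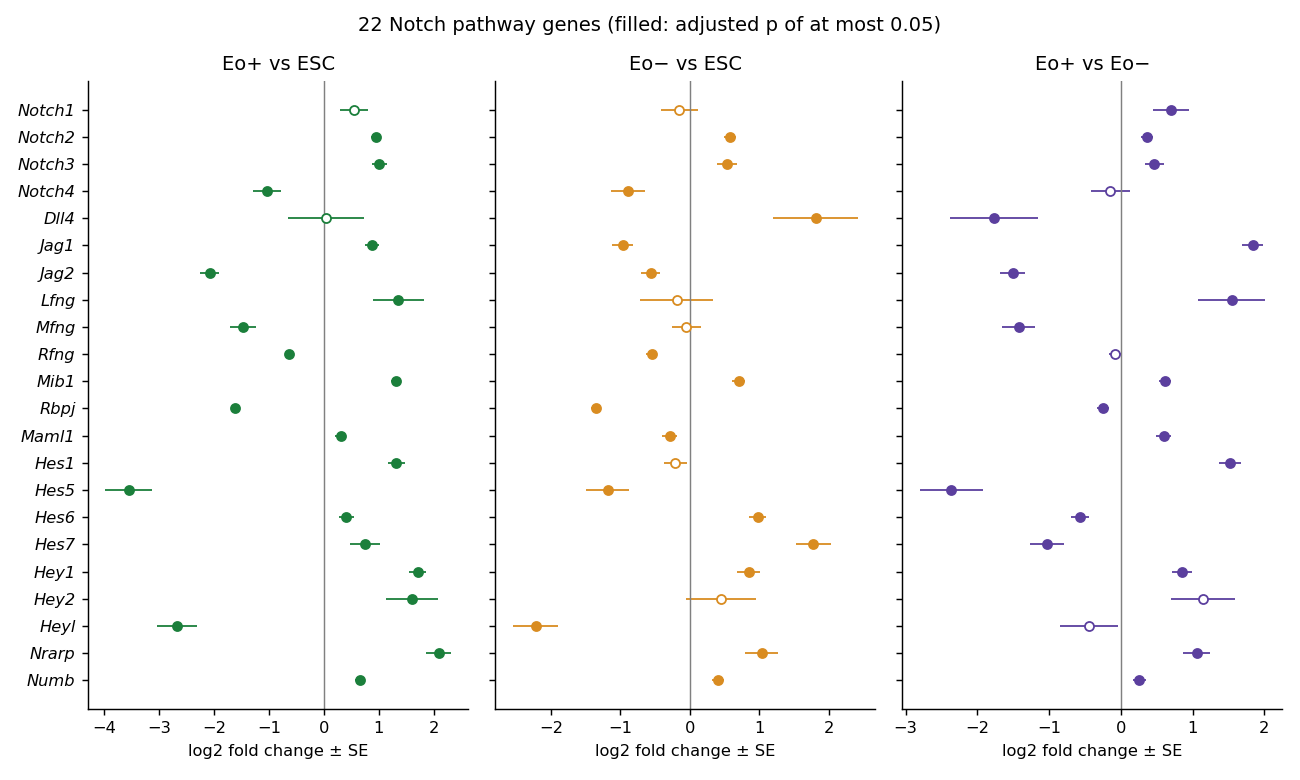
Log2 fold change ± SE from limma of 22 Notch pathway genes in the 3 comparisons, with filled symbols at an adjusted p of at most 0.05. In Eo+ against Eo− the values run from −2.36 for Hes5 to 1.84 for Jag1.

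A list of 23 presomitic and somite genes, of which 20 were tested, had 10 higher, 6 lower and 4 not called in Eo+ against ESC. It had 7, 6 and 7 in Eo− against ESC and 10, 4 and 6 in Eo+ against Eo−, with medians of 0.87, 0.23 and 0.86. Mesp1 was at 0.400 CPM in ESC, 6.03 in Eo− and 139 in Eo+ cells, and rose by 4.57 ± 0.63 in Eo+ against Eo− (limma adjusted p = 6.58e-05). Snai1, a repressor of epithelial genes, went from 13.9 to 109 CPM (2.83 ± 0.43, adjusted p = 1.29e-04) and Tbx6, a T-box factor of presomitic mesoderm, from 5.83 to 21.5 CPM (1.77 ± 0.41, adjusted p = 0.00284). Pax7 (3.25 ± 0.42) had a mean of 0.770 CPM in Eo+ and 0.0771 CPM in Eo−. Tcf15, a factor of epithelial somites, fell in Eo+ against Eo− (−1.85 ± 0.18, limma adjusted p = 4.76e-06), from 14.2 to 4.02 CPM, and like Meox1 was highest in ESCs, at 39.3 CPM. Cdx1, a posterior homeobox factor, was at 10.8 CPM in ESC, 0.314 in Eo− and 1.15 in Eo+ cells (1.84 ± 0.59 in Eo+ against Eo−, adjusted p = 0.0193).

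Of 15 lateral and extraembryonic mesoderm genes tested, 9 were higher, 3 lower and 3 not called in Eo+ against ESC, 3, 5 and 7 in Eo− against ESC, and 11, 0 and 4 in Eo+ against Eo−, with medians of 3.18, 0.13 and 1.86. The 3 that were lower in Eo+ than in ESC were Tbx4 (−3.73 ± 0.74), Prrx1 (−1.33 ± 0.49) and Snai2 (−1.25 ± 0.39), with limma adjusted p-values of 4.29e-04, 0.0264 and 0.00983. Hand2, a bHLH factor of the heart and limb, rose from 0.839 to 16.2 CPM in Eo+ against Eo− (4.99 ± 0.88, limma adjusted p = 4.26e-04). Kdr, the vascular endothelial growth factor receptor of early mesoderm, rose from 23.7 to 206 CPM (3.28 ± 0.53, adjusted p = 2.13e-04) and Tbx20, a cardiac T-box factor, from 1.60 to 18.0 CPM (3.46 ± 0.50, adjusted p = 9.11e-05). Nkx2-5, a cardiac homeobox factor, was at 1.39 CPM in Eo+ against 0.164 CPM in Eo− (2.93 ± 0.45, limma adjusted p = 1.39e-04). Gata4 and Gata6 were higher by 4.78 ± 0.34 and 4.90 ± 0.28, with adjusted p-values of 3.99e-07 and 7.57e-08. These 2 also stand in the endoderm list, 8 of whose 12 genes were higher, 0 lower and 4 not called in Eo+ against Eo−. In Eo− against ESC that list had 3, 2 and 7, and its medians in Eo+ and Eo− against ESC were 4.27 and 0.97, and 2.39 in Eo+ against Eo−. The 5 called in Eo− against ESC became 9 with edgeR or DESeq2, 10 with the replicate block or in the fit of these 2 groups alone and 8 without replicate 1 or replicate 2 of Eo+. Foxa2, an endoderm factor, was higher by 2.78 ± 0.22 in Eo+ against Eo− and Sox17 by 3.62 ± 0.32, with limma adjusted p-values of 7.19e-07 and 1.93e-06, and Sox17 was at 47.4 CPM in Eo+. Afp (4.196 ± 1.21, adjusted p = 0.0113) and Apoa1 (2.01 ± 0.78, adjusted p = 0.0479) were also higher there, and Ttr was not called (2.81 ± 1.12, adjusted p = 0.0535).

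Of 5 tested intermediate mesoderm genes, the lineage with which Osr1 is associated, 2 were higher and 3 lower in each fraction than in ESC. In Eo+ against Eo−, 2 were higher, 2 lower and 1 not called, and the medians were −2.93 (Eo+ against ESC), −1.11 (Eo− against ESC) and −0.68 (Eo+ against Eo−). Lhx1, which is also a gene of the anterior streak, reached 602 CPM in Eo+ against 23.4 in Eo− (4.69 ± 0.30, limma adjusted p = 1.65e-07), and Gata3 8.01 against 1.86 CPM (2.19 ± 0.31, adjusted p = 8.86e-05). The kidney factors Wt1 (−3.28 ± 0.28, limma adjusted p = 1.26e-06) and Pax8 (−1.82 ± 0.30, adjusted p = 2.40e-04) were lower in Eo+. Osr2, the paralog of Osr1, had 0.193 CPM in Eo− cells and 0.128 CPM in Eo+ cells (−0.68 ± 0.54, adjusted p = 0.315) and at 2.28 CPM in ESC.

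Ligand genes of the PDGF family were lower or not called where Pdgfra was higher. Of 8 genes of the PDGF pathway and its receptor family, 4 were higher, 3 lower and 1 not called in Eo+ against ESC, 2, 4 and 2 in Eo− against ESC, and 3, 1 and 4 in Eo+ against Eo−, with medians of 0.73, −0.30 and 0.38. In Eo+ against Eo− the ligand gene Pdgfc was lower (−0.75 ± 0.26, limma adjusted p = 0.0299), at 1.97 CPM against 29.9 CPM in ESC, and Pdgfa (0.12 ± 0.23, adjusted p = 0.678), Pdgfb (−0.40 ± 0.38, adjusted p = 0.404) and Pdgfd (0.39 ± 0.34, adjusted p = 0.358) were not called. The second receptor, Pdgfrb, was higher in Eo+ than in Eo− by 1.28 ± 0.17 (limma adjusted p = 5.32e-05), at 11.9 against 4.80 CPM. Kit, the receptor gene next to Pdgfra at a distance of 377 kb, was higher by 0.94 ± 0.23 (adjusted p = 0.00487), at 50.3 against 26.9 CPM. Of 4 tested neural progenitor genes, 3 were lower and 1 was not called in each comparison, with medians of −4.03 in Eo+ against ESC, −1.24 in Eo− against ESC and −2.62 in Eo+ against Eo−. Sox1 was lower in Eo+ than in Eo− by a log2 change of −3.21 ± 0.43 (limma adjusted p = 4.97e-05), Pax6 by −2.87 ± 0.34 (adjusted p = 1.85e-05), and Nes was not called (−0.42 ± 0.27, adjusted p = 0.210).

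Within the fibroblast list, Eo+ against Eo− gave 3 genes higher, 4 lower and 8 not called, with a median of 0.15, against −2.41 in Eo+ against ESC and −2.56 in Eo− against ESC. The matrix gene Fbln2 was at 27.0 CPM in Eo+, 2.99 in Eo− and 53.9 in ESC (3.03 ± 0.60 in Eo+ against Eo−, limma adjusted p = 0.00100), and Twist2 was higher by 1.60 ± 0.39 (adjusted p = 0.00407). Dcn (−2.74 ± 0.47), Col3a1 (−2.48 ± 0.83) and Thy1 (−1.48 ± 0.22) were lower in Eo+ than in Eo−.

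Neighbouring loci were examined for each gene. Only tested loci wholly outside the span of a gene were taken as its nearest neighbours. Mesp1, which rose by 4.57 ± 0.63 in Eo+ against Eo−, was not among those of Mesp2. BC089491, which lies 2.37 kb downstream of Dll3 on the same strand, changed alongside Dll3, by 2.81 ± 0.26 in Eo+ against ESC, 1.26 ± 0.28 in Eo− against ESC and 1.56 ± 0.23 in Eo+ against Eo− (limma adjusted p = 3.63e-07, 0.00144 and 9.37e-05). Its level was 0.382, 0.902 and 2.74 CPM in ESC, Eo− and Eo+. Timm50, 3.28 kb on the other side of Dll3, was not called in Eo+ against Eo− (0.11 ± 0.11, adjusted p = 0.425). The locus 271 bp from Mesp2 on the opposite strand, a non-annotated lncRNA, was not called in Eo+ against Eo− (0.22 ± 0.31, adjusted p = 0.591) at 0.164 to 0.268 CPM. Kcns3, a potassium channel subunit 55.5 kb from Msgn1, was higher in Eo+ than in Eo− by 2.03 ± 0.15 (limma adjusted p = 3.79e-07), unlike Msgn1. Gmds, 8.93 kb from Foxc1, and Fam120b, 19.3 kb from Dll1, were not called in this comparison (−0.11 ± 0.09 and −0.03 ± 0.10, adjusted p = 0.343 and 0.802).

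Transcripts that start on the opposite strand within 5000 bp were found at Pdgfra, Foxc1, Dll1 and Osr1, all below the expression filter and therefore not tested. A930024N18Rik, which overlaps the start of Dll1 head to head, held 0.0146 ± 0.0067 CPM in ESC, 0.0258 ± 0.014 CPM in Eo− and 0.0815 ± 0.035 CPM in Eo+ libraries (SD, n = 4). The nearer of the 2 such loci at Pdgfra, 2.32 kb away, held 0.0408 ± 0.023 CPM in Eo+, and was at 0.000660 and 0.000946 CPM in ESC and Eo−, under the level of 3 counts. At Foxc1 the nearer locus held 0.0147 ± 0.017 CPM and the farther 0.0773 ± 0.013 CPM in Eo+. The locus at Osr1 was at 0 counts in all 12 libraries, which allows up to 0.00368 to 0.00485 CPM.

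The genes with the most similar profile were listed as a description, by Pearson correlation of log2 CPM over the 12 libraries, which share the 3 groups. For Pdgfra they were Plxna2 (r = 0.994) and Gata4 (0.993), for Mesp2 D430041D05Rik (0.991) and Cbln1 (0.985), and for Dll3 Syndig1l (0.993) and Igdcc3 (0.989). Foxc1 was closest to Slc30a6 (0.985) and Hmga2 (0.976), Dll1 to Dlc1 (0.965) and Sardh (0.964), Meox1 to Vmac (0.977) and R3hdml (0.975), Msgn1 to Bcl9l (0.969) and Fam73b (0.946) and Osr1 to Fbn1 (0.928) and Hp1bp3 (0.907). Among the 8 genes themselves the highest value was that of Pdgfra with Dll3 (0.948) and the lowest that of Msgn1 with Meox1 (−0.753).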

How the data were processed

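Poly(A) RNA from 12 libraries was read as paired, strand-specific 100-base reads. Per the labels and the study's methods, the authors mapped reads to mm10 with STAR, assembled transcripts with Cufflinks 2.2.1 on the Ensembl annotation and counted them per merged locus with HTSeq 0.6.1. The deposited raw counts, unscaled, were the main input. The deposited normalized signal (raw counts over 1 constant per library, made by the authors) served as an alternative. HTSeq set aside 22.4% to 26.2% of alignments as not unique, so reads shared by near-identical genes are missing from the counts, and 357 loci without a position were left out. No column belonged to another sample (0).

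A gene was taken as the locus whose transcripts matched it in the assembly. Loci with a mean above 0.1 FPKM in at least 1 group were tested (14222 protein-coding, 1003 annotated and 2713 non-annotated lncRNAs). Limma 3.58.1 was run on voom values with TMM factors from edgeR 4.0.16 in R 4.3.3, with 1 mean per group over all 12 libraries, two-sided moderated tests with 13.5 degrees of freedom and Benjamini-Hochberg adjustment over all 17938 loci. CPM and FPKM are per TMM-scaled counts in tested loci. DESeq2 1.42.0 and edgeR's quasi-likelihood test were alternatives. The script was tested on simulated data. Same-numbered Eo+ and Eo− libraries deviated together (r = 0.634, 0.312, 0.371 and 0.407 across loci, each library best with its own number), so the numbers were taken to pair the sorted fractions. For ESC libraries the same-number correlations ran from −0.125 to 0.430 and were above 0.1 in replicates 1 and 2 with Eo− and in replicate 1 with Eo+ only.

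The members and lists were chosen with earlier results of these data known. Named list genes are up to 6 a list with the largest absolute change in Eo+ against Eo−, besides the neighbours and the 2 most similar protein-coding loci of each member, while Tagln, S100a4, Amn, Cubn, Ccl2, Pdgfa, Apoa1, Tbx4, Prrx1 and Snai2 were chosen after their values were seen.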

Additional observations from a re-analysis of the deposited data

Results flagged for a closer look

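In 24 groups of 4 libraries (8 genes in 3 groups), 1 library stood apart from the other 3. Mesp2 in replicate 6 of ESC was at 2.39 CPM, with the next library at 1.71 CPM, and the gap made up 0.946 of the range of the group, above Dixon's 95% critical value for 4 values. Chance alone flags about 1 in 20 groups.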

How the results depend on the processing

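Over 22 to 24 alternatives for each gene and comparison, 528 values kept their direction and side of the threshold, 17 lost and 7 gained a call, and 5 changed sign. The sign changes concern Msgn1 in Eo+ against Eo−, which was never called, at −0.0373 with edgeR, −0.0290 with DESeq2, −0.00255 with the replicate block, −0.43 without replicate 5 of Eo− and −0.0863 without replicate 6 of Eo+, and its values with 1 library left out ran from −0.43 to 0.42. The lost and gained calls are those of Foxc1 and Pdgfra in Eo− against ESC, Dll1 in Eo+ against ESC and Osr1 in Eo+ against Eo−, given with their values above. The cause was not tested. Foxc1 in Eo− against ESC was also lost with the filter of 1 CPM (0.0539), with all classes of locus (0.0528) and where a 2-fold change was required. Among the 8 genes the replicate block changed no call other than those of Dll1 and Osr1. Counts of genes called stayed within 6 and 7 in Eo+ against ESC, 4 and 6 in Eo− against ESC and 5 and 6 in Eo+ against Eo−. With a 2-fold change also required, 6839 of all loci were called in Eo+ against ESC (2927 higher, 3912 lower). In Eo− against ESC 5078 were called (2144 higher, 2934 lower). In Eo+ against Eo− 3794 were called, 1098 higher and 2696 lower. Notch genes called were 13, 6 and 9 with a 2-fold change also required, and the count of the endoderm list in Eo− against ESC moved as given above. No scaling moved the median of all loci by over 0.1. With 1 library left out, the log2 difference between groups in the ratio of Dll3 to Dll1 was 2.196 to 2.55 in Eo+ against ESC, 2.91 to 3.27 in Eo− against ESC and −0.81 to −0.62 in Eo+ against Eo−, values without a test. With the 250 bases before the start alone, TGGGAA was in 1 window and not 2. A ratio planned for a pair of forkhead genes was not run. The filter of 1 CPM left Osr1 untested, and the fit on 8 libraries with the block was chosen after seeing the data. The fit without replicate 5 of ESC, which had the highest fibroblast sum, was among the fits with 1 library left out.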
